A study of Mus musculus with 34 samples.

Results

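The data described here set the dexamethasone response of mouse cells with a W718S/Y722S glucocorticoid receptor against that of cells with the wild-type (WT) receptor. They come from 16 of the 34 libraries of the series, namely 5 of W718S/Y722S with dexamethasone, 5 of W718S/Y722S with vehicle, 3 of WT with dexamethasone and 3 of WT with vehicle. For each gene, the change in a line was the mean log2 level with dexamethasone minus the mean log2 level with vehicle. The difference was the change in W718S/Y722S minus the change in WT. Of the 25124 genes in the tables, 13013 had at least 10 normalised counts in at least 3 of the 16 libraries and were tested.

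All libraries came from C127 cells, a mouse adenocarcinoma line per the labels, whose own receptor had been knocked out (GRKO) and which carried a mouse receptor (mGR) fused to GFP. The W718S/Y722S receptor has serine in place of the tryptophan and the tyrosine that its name gives, and the WT receptor has no substitution. After 24 h in charcoal-stripped serum, which holds little steroid, cells received 100 nM dexamethasone (Dex), a synthetic glucocorticoid, for 2 h, or vehicle. Total RNA was sequenced. The labels name neither clones nor the promoter of the introduced receptor, so the substitutions and the line that carries them cannot be told apart. They also do not say that replicates were separate cultures, so the p-values here speak of the spread among libraries, part or all of which could be technical. In bulk RNA, fewer cells that express a gene and less RNA per cell cannot be told apart.

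The glucocorticoid receptor is a transcription factor that is switched on by its steroid ligand. Without hormone it is held by chaperones in the cytoplasm. With hormone it enters the nucleus, binds DNA and raises or lowers the transcription of genes. The series concerns how receptor molecules assemble into multimers. Well-known early targets include Sgk1, Per1, Tsc22d3 and Fkbp5.

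Depth was 24.0 to 32.5 M total reads in W718S/Y722S libraries and 31.0 to 41.5 M in WT libraries, of which 68.6 to 74.6% and 71.2 to 74.4% were counted in exons. Rn45s, the ribosomal RNA precursor, made up 15.6 to 18.3% of exon counts in W718S/Y722S and 9.95 to 11.3% in WT. Epithelial markers were low: Cldn4 was at 0 in every library group, Epcam had a mean under 1 normalised count in each, and Krt8 averaged 20.2 with Dex and 26.3 with vehicle in W718S/Y722S, against 28.2 and 29.6 in WT. Of 6 mesenchymal markers, Vim averaged 69230 with Dex in W718S/Y722S, against 62580 in WT. Col1a2, Pdgfrb, Cdh2 and Col1a1 averaged 37860, 2905, 3326 and 98.2 with Dex in W718S/Y722S, against 60640, 5247, 4783 and 148 in WT, and Acta2 at most 23.9 in any group. The receptor gene Nr3c1 had 5325, 5561, 5437, 5309 and 5502 normalised counts in W718S/Y722S with Dex and 5756, 5799.7, 5781, 5734 and 5785 with vehicle. The WT libraries had 6161, 6014 and 6076 with Dex and 6408, 6379.7 and 6489 with vehicle. The 4 groups did not overlap, but lay close together. The change of Nr3c1 was -0.09 in W718S/Y722S and -0.08 in WT, and the difference was -0.01 (95% interval -0.08 to 0.06, adjusted p = 0.95, limma). In these counts, reads of the introduced receptor and of what remains of the edited gene cannot be told apart.

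One library stood apart, and some pairs lay very close. W718S/Y722S Dex replicate 1 had a median absolute log2 gap of 0.0853 to the rest of its group, against 0.0426 to 0.0566 for the other 15 libraries. Among 84 genes that rose by at least 0.5 (log2) in P643A, another mutant line, its median change was 0.51, against 0.64 to 0.67 in the other 4 W718S/Y722S Dex libraries. It had the smallest value of the 5 for 48 of these genes. Among 20 genes that fell by at least 0.5 in P643A its median change was -0.37, against -0.25 to -0.32 in the other 4 libraries. The pairs formed by W718S/Y722S vehicle replicates 2 and 3, W718S/Y722S Dex replicates 2 and 3, W718S/Y722S Dex replicates 4 and 5, and WT Dex replicates 2 and 3 had a chi-square of 1.19 to 1.29 per gene, whereas other pairs within a group had 1.84 to 11.6. Sampling noise alone gives about 1. All were kept as separate libraries, and counts are also given with these 4 pairs averaged.

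Dex changed 859 genes in W718S/Y722S (6.6% of those tested, with 417 rises, 3.2%, and 442 falls, 3.4%) and 614 in WT (4.72%, with 387 rises, 2.97%, and 227 falls, 1.74%). A gene was called where the limma p-value, adjusted by Benjamini and Hochberg over all tested genes, was under 0.05. Both lines shared 311 calls, which is 36.2% of the W718S/Y722S calls and 50.7% of the WT calls, and all but 5 of them went the same way. Strong changes were fewer in W718S/Y722S, with 31 rises and 1 fall of at least 2-fold, against 65 rises and 4 falls in WT. The median called rise was 0.23 in W718S/Y722S and 0.39 in WT on the log2 scale, and the median called fall was -0.19 and -0.25. W718S/Y722S had 5 libraries per group and WT 3, so smaller changes could be called in W718S/Y722S. The fit also used 1 spread per gene for both lines, although libraries varied more in W718S/Y722S. Among genes with a mean count of at least 100, the median SD about group means (log2) was 0.070 there and 0.052 in WT. A shared spread favours calls in W718S/Y722S over calls in WT. The counts, shares and medians of called genes are therefore not on equal terms between the lines. The authors' deposited calls number 608 in W718S/Y722S and 616 in WT.

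The difference between the lines was called for 224 genes, 1.72% of those tested. It was negative for 166 genes (1.28%) and positive for 58 (0.446%). The most frequent pattern was a smaller rise: 138 of the 224 genes rose in WT and had a lower change in W718S/Y722S. Of these, 69 also rose in W718S/Y722S, with a median of 39.8% of the WT log2 change, 65 had no called change there, and 4 fell. The 138 genes were picked for a lower change in W718S/Y722S, so this share is low by choice. It is no estimate of how much of the WT response was kept. Genes picked without either line are given further below. The mirror pattern was a WT fall with a higher change in W718S/Y722S, found for 36 genes, of which 9 also fell in W718S/Y722S, 26 had no called change and 1 rose. A WT rise that was larger in W718S/Y722S was found for 5 genes, and a WT fall that was deeper in W718S/Y722S for 1, Irf2bpl. Of the other 44 genes, called in W718S/Y722S but not in WT or in neither line, 15 rose in W718S/Y722S, 23 fell there and 6 were called in neither.

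Without W718S/Y722S Dex replicate 1, the difference was called for 351 genes, 239 lower and 112 higher, and these include 223 of the 224. With the 4 closest pairs averaged it was called for 125 genes, 101 lower and 24 higher, all of them among the 224. Without the 4 libraries that had an exon share under 70% (W718S/Y722S vehicle replicates 2 and 3 and W718S/Y722S Dex replicates 4 and 5) it was called for 147 genes, and with that exon share as a term in the fit for 258 genes (73 higher, 185 lower), the 224 among them. With library sizes from total exon counts without Rn45s it was called for 215 genes (63 higher, 152 lower), 210 of them among the 224.

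**Figure D1:**
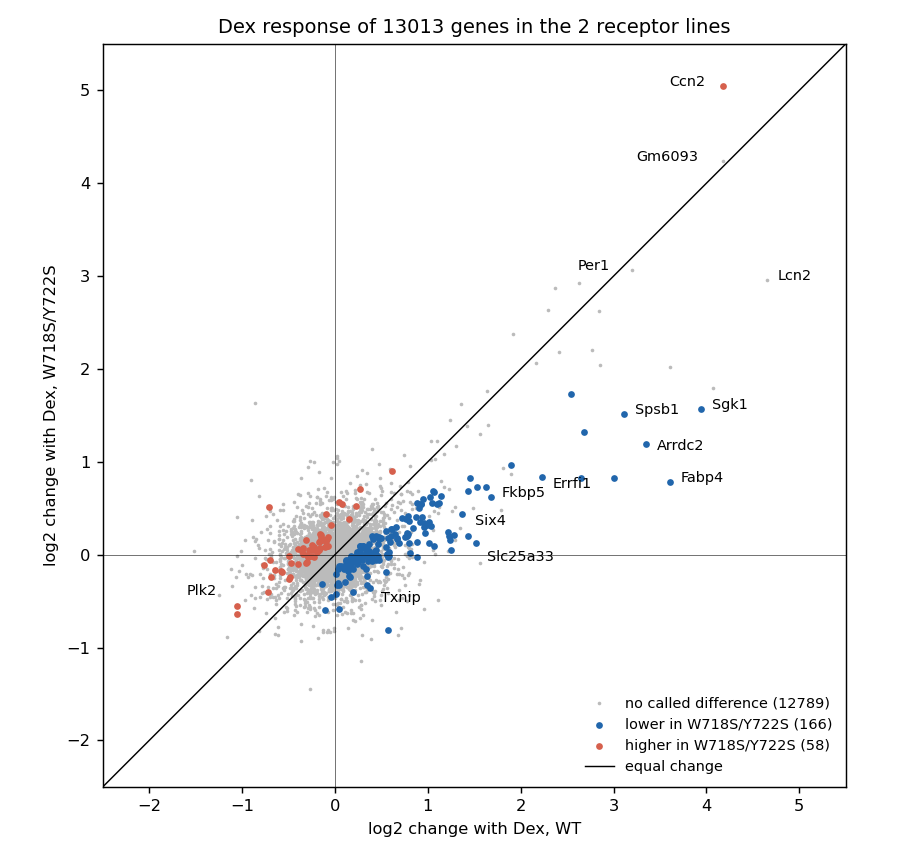
Change with Dex (log2) of the 13013 tested genes in W718S/Y722S (vertical axis) against WT (horizontal axis). Blue points mark the 166 genes with a lower change in W718S/Y722S, red points the 58 with a higher one, grey points the rest and the diagonal an equal change; Sgk1, Fabp4 and Arrdc2 lie far below the diagonal, Per1 near it and Ccn2 above it.

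Sgk1 had the clearest difference among the well-known targets. Sgk1 (chr10:21994666-21999902, + strand, mm10) encodes a kinase that acts on ion channels and transporters. It had 6375, 7880.4, 8005, 7491 and 7373 normalised counts in W718S/Y722S with Dex and 2376, 2497, 2578, 2559 and 2469 with vehicle. WT cells had 12089, 12658 and 12407 with Dex and 817, 801 and 795 with vehicle. No group overlapped another: with Dex the W718S/Y722S cells held less Sgk1 RNA than WT, and with vehicle they held more. Sgk1 was 2.97-fold higher with Dex in W718S/Y722S and 15.4-fold higher in WT, and the log2 difference was -2.37 ± 0.07 (standard error; adjusted p = 8.6e-17, limma).

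Fabp4 (chr3:10204343-10208616, - strand), a fatty acid carrier best known from adipocytes and macrophages, had the lowest difference of the named genes. It had 43.8, 81.4, 66.1, 75.8 and 70.5 normalised counts in W718S/Y722S with Dex and 41.0, 37.7, 35.8, 36.0 and 39.0 with vehicle. Its counts in WT were 66.7, 79.0 and 60.1 with Dex and 8.21, 2.39 and 4.89 with vehicle. With Dex the lines overlapped, and with vehicle every W718S/Y722S library was above every WT library. The difference was -2.82 ± 0.33 (adjusted p = 9.2e-06, limma), and its call was lost on the deposited log2 values (-0.05, adjusted p = 0.23) and on those values rescaled (adjusted p = 0.58). The other adipocyte markers Adipoq and Plin1 averaged at most 0.83 and 3.99 normalised counts in any group.

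For Arrdc2 and Spsb1, the vehicle levels of the lines overlapped and the Dex levels lay apart. Arrdc2 (chr8:70835138-70839720, - strand), an alpha-arrestin, had 317, 368, 401, 366 and 389 normalised counts in W718S/Y722S with Dex and 181, 151, 147, 189 and 139.9 with vehicle. In WT it had 1589, 1771 and 1743 with Dex and 186, 155 and 159 with vehicle. It was 2.28-fold higher with Dex in W718S/Y722S and 10.2-fold higher in WT, a difference of -2.16 ± 0.13 (adjusted p = 9.8e-11, limma). Spsb1 (chr4:149896284-149955006, - strand), a substrate receptor of a ubiquitin ligase, had 398, 562, 550.1, 508 and 511 normalised counts in W718S/Y722S with Dex and 187, 159.8, 157, 211 and 168 with vehicle. The WT libraries had 1601, 1623 and 1538 with Dex and 179, 178 and 189 with vehicle. Both groups with Dex lay above vehicle in each line, and the difference was -1.61 ± 0.13 (adjusted p = 2.2e-08, limma).

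Fkbp5 (chr17:28398753-28486149, - strand), a co-chaperone that lowers the hormone affinity of the receptor, had 2534, 2856, 2879, 2643 and 2599 normalised counts in W718S/Y722S with Dex and 1828, 1716, 1713, 1809 and 1737 with vehicle. WT cells had 3771, 3519 and 3549.7 with Dex and 1079.7, 1154 and 1139 with vehicle. No group overlapped another, and W718S/Y722S was lower than WT with Dex and higher than WT with vehicle. Fkbp5 was 1.53-fold higher with Dex in W718S/Y722S and 3.21-fold higher in WT, a difference of -1.07 ± 0.06 (adjusted p = 1.9e-11, limma). Errfi1, an inhibitor of the EGF receptor, averaged 799.9 ± 78.5 and 446 ± 30.8 normalised counts in W718S/Y722S with Dex and vehicle (SD, n = 5 each), against 1279.5 ± 25.2 and 272 ± 24.1 in WT (SD, n = 3 each). Its groups did not overlap, and its difference was -1.39 ± 0.10 (adjusted p = 1.2e-09, limma).

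Several genes that rose more than 2-fold in WT changed little in W718S/Y722S. Slc25a33, a mitochondrial nucleotide carrier, had 303, 297, 312, 284 and 268 normalised counts in W718S/Y722S with Dex and 287, 242, 268, 263 and 282 with vehicle. Its counts in WT were 499.5, 559.7 and 499 with Dex and 201, 162 and 181 with vehicle. Dex and vehicle overlapped in W718S/Y722S and lay apart in WT. Its change was 0.13 in W718S/Y722S (adjusted p = 0.29, limma) and 1.52 in WT, and the difference was -1.39 ± 0.11 (adjusted p = 4.9e-09, limma). Six4, a homeobox factor, averaged 1123 ± 20.9 and 978 ± 33.8 normalised counts in W718S/Y722S with Dex and vehicle, against 2444 ± 42.2 and 906 ± 40.0 in WT. Its change was 0.20 in W718S/Y722S and 1.43 in WT, and the vehicle levels of the lines overlapped. The difference was -1.23 ± 0.05 (adjusted p = 1.2e-13, limma).

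The 14 lowest differences by the naming rule also included Itga10, Pdk4, Sesn1, Id1, Rhob and Apobec1. Itga10, a collagen-binding integrin subunit, changed by 1.33 in W718S/Y722S and 2.68 in WT. Pdk4, a kinase that inhibits pyruvate dehydrogenase, had 101, 168, 209, 201 and 188 normalised counts in W718S/Y722S with Dex and 133, 159.8, 149, 153 and 159 with vehicle. In WT it had 331, 317 and 303 with Dex and 136, 135 and 131 with vehicle. Dex and vehicle overlapped in W718S/Y722S, where Dex replicate 1 was the lowest of its group, and not in WT. The difference of Pdk4 was -1.08 ± 0.21 (adjusted p = 0.0047, limma). Sesn1, a stress-induced inhibitor of mTORC1 signalling, changed by 0.21 in W718S/Y722S and 1.29 in WT. Id1, an inhibitor of basic helix-loop-helix factors, averaged 1319 ± 39.8 and 1149.9 ± 78.1 normalised counts in W718S/Y722S with Dex and vehicle, against 373 ± 35.7 and 158 ± 9.09 in WT, so that the levels of the lines lay far apart. Its difference of -1.03 ± 0.08 (adjusted p = 1.7e-08, limma) lost its call on the rescaled deposited values (adjusted p = 0.064). Rhob, a small GTPase, changed by 0.25 in W718S/Y722S and 1.22 in WT. Apobec1, a cytidine deaminase that edits RNA, changed by 0.10 in W718S/Y722S (adjusted p = 0.51, limma) and 1.06 in WT.

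**Figure D2:**
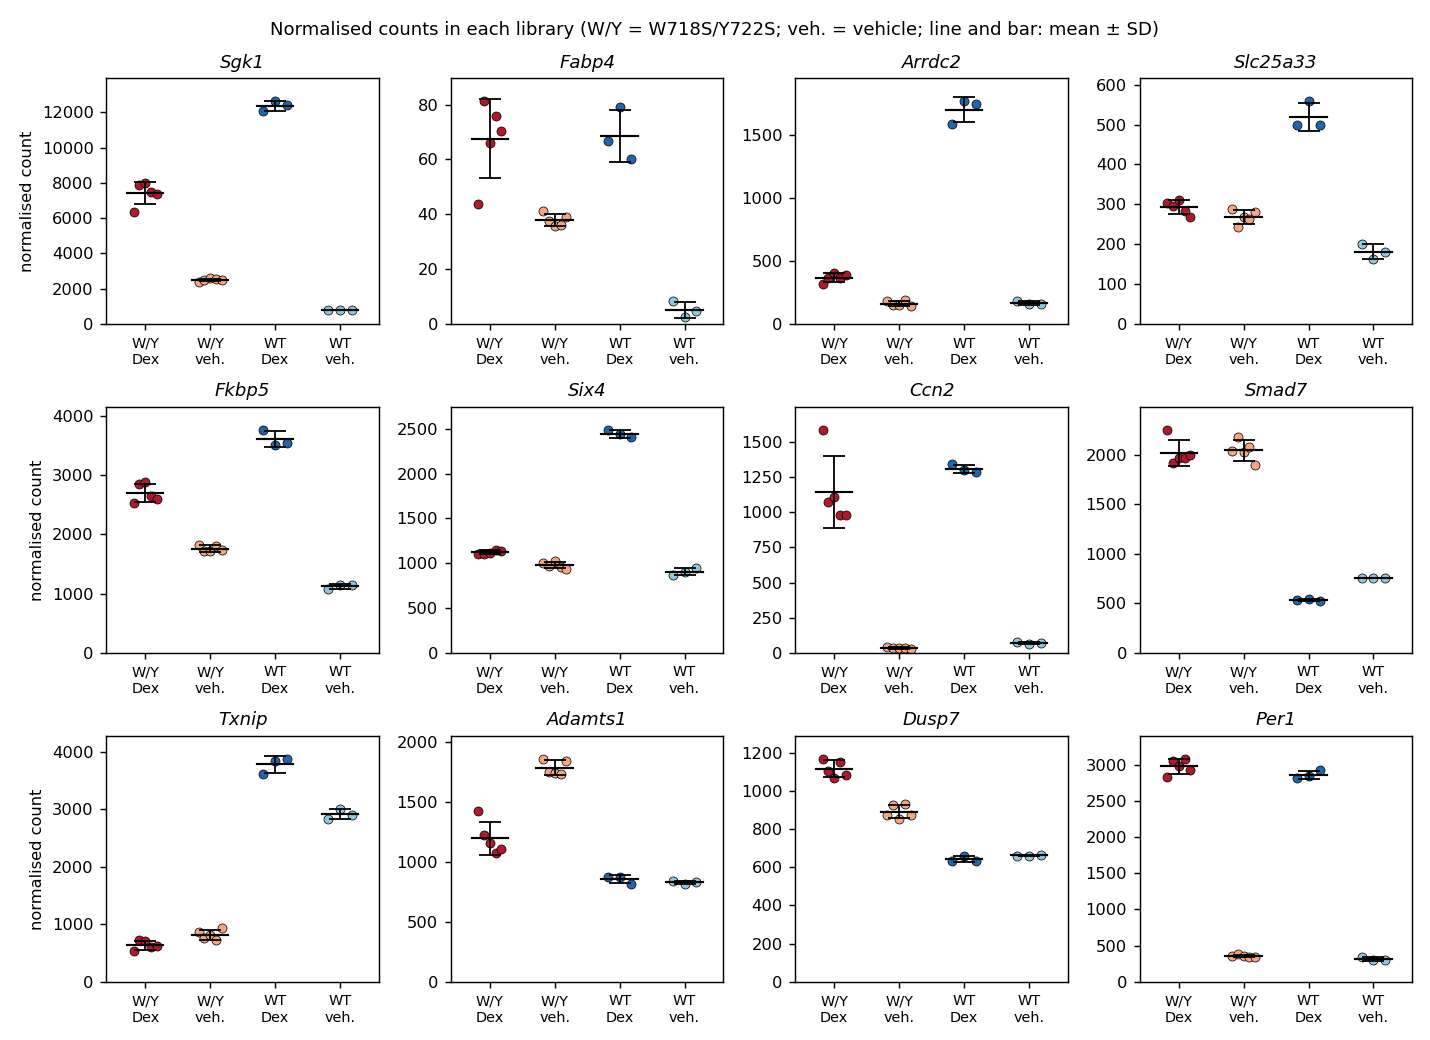
Normalised counts of 12 named genes in each library, in W718S/Y722S (W/Y) with Dex and vehicle (5 points each) and in WT with Dex and vehicle (3 points each). The line and bar give the mean and SD and each axis starts at 0; for Arrdc2 the WT Dex libraries lie far above all others, and for Per1 the 2 lines lie close together.

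Many strong responses had no called difference. Of the 65 genes that rose at least 2-fold in WT, 34 had a lower difference, 1 a higher one and 30 none that was called. These genes were picked by their WT change, which is part of the difference, so a lean toward lower differences is partly built in. Per1 (chr11:69098949-69109957, + strand), a repressor of the circadian clock, had 2833, 3055, 2975, 3083 and 2924 normalised counts in W718S/Y722S with Dex and 354, 380.0, 361, 342 and 343 with vehicle. The WT libraries had 2809, 2842 and 2919 with Dex and 339.5, 299.6 and 295 with vehicle. With Dex the lines overlapped. Per1 was 8.36-fold higher with Dex in W718S/Y722S and 9.18-fold higher in WT, and the difference of -0.14 (95% interval -0.27 to -0.00094) did not pass the test (adjusted p = 0.43, limma). On the rescaled deposited values its sign turned, to 0.64 (adjusted p = 4.7e-05). Its paralog Per2 averaged 623 ± 14.4 and 403 ± 30.4 normalised counts in W718S/Y722S with Dex and vehicle, against 1030.5 ± 9.0 and 466 ± 38.5 in WT. The Dex levels of Per2 did not overlap between the lines, and its difference was -0.52 ± 0.08 (adjusted p = 0.00031, limma).

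Foxred2, Ampd3 and Sphk1 also had among the smallest differences of the genes with a 2-fold WT change. Foxred2, an oxidoreductase of the endoplasmic reticulum, averaged 1403 ± 59.5 and 663 ± 29.1 normalised counts in W718S/Y722S with Dex and vehicle, against 1368 ± 24.8 and 607 ± 38.6 in WT, and both treatments overlapped between the lines. Its difference was -0.09 (95% interval -0.23 to 0.04). Ampd3, which deaminates AMP, had a difference of -0.13 (95% interval -0.32 to 0.05). Sphk1, a sphingosine kinase, had one of 0.19 (95% interval -0.03 to 0.41), which was -0.20 on the deposited log2 values (adjusted p = 0.00013, limma). The intervals were wider for Lims2 (-0.74 to 0.63), S100a7a (-1.03 to 0.82) and Orm3 (-0.98 to 0.54). Gm6093 (chr13:33562486-33568869, - strand) had 334 to 382 normalised counts in W718S/Y722S with Dex and 12.3 to 26.2 with vehicle. WT cells had 22.2, 19.4 and 21.6 with Dex and 0, 0.797 and 0 with vehicle, so no fold is given there. Whether its difference was called depended on the scale: it was 0.06 (95% interval -0.61 to 0.74) with the pseudocount of 1, but was called with one of 10 (2.10, adjusted p = 1.2e-07, limma), on the deposited log2 values (0.60) and on those rescaled (1.54).

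Ccn2 went the other way. Ccn2 (chr10:24595442-24598682, + strand) encodes a secreted matrix protein and is a target of the Hippo pathway factor YAP. It had 1588, 1070.3, 1108, 981 and 979 normalised counts in W718S/Y722S with Dex and 41.0, 32.0, 32.5, 33.96 and 27.6 with vehicle. Its counts in WT were 1342, 1299 and 1285 with Dex and 79.1, 62.1 and 73.4 with vehicle. With Dex the lines overlapped, W718S/Y722S Dex replicate 1 being the highest library of all, and with vehicle every W718S/Y722S library was below every WT library. Ccn2 was 34.3-fold higher with Dex in W718S/Y722S and 18.3-fold higher in WT, a difference of 0.86 ± 0.18 (adjusted p = 0.0083, limma). The call was lost with voom weights, with the 4 closest pairs averaged, on the deposited log2 values and on those values rescaled (adjusted p = 0.32, 0.066, 0.87 and 0.18, against 0.00020 to 0.87 over all alternatives).

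Ccbe1 and Klf9 also rose in both lines, and more in W718S/Y722S. Ccbe1, a secreted factor of lymphatic growth, had 1350.2, 1738, 1713, 1769.8 and 1654 normalised counts in W718S/Y722S with Dex and 974.6, 1048, 985, 978 and 1029.5 with vehicle. In WT it had 1984, 1878 and 1851 with Dex and 1536, 1551 and 1663 with vehicle. Dex and vehicle did not overlap in either line. Its change was 0.71 in W718S/Y722S and 0.27 in WT, a difference of 0.44 ± 0.09 (adjusted p = 0.0045, limma), and the call was lost with the 4 closest pairs averaged (adjusted p = 0.10) and without the libraries with an exon share under 70% (adjusted p = 0.052). Klf9, a Kruppel-like factor and known receptor target, changed by 0.90 in W718S/Y722S and 0.61 in WT, a difference of 0.29 ± 0.06 (adjusted p = 0.0081, limma).

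Most of the other highest differences were WT falls that were weaker in W718S/Y722S or not called there. Smad7, an inhibitor of TGF-beta signalling, had 2252, 1917, 1965, 1965 and 1996 normalised counts in W718S/Y722S with Dex and 2039.6, 2174, 2028, 2078 and 1892 with vehicle. The WT libraries had 537, 544 and 521 with Dex and 754, 758 and 753 with vehicle. Dex and vehicle overlapped in W718S/Y722S and lay apart in WT, and the difference was 0.48 ± 0.06 (adjusted p = 5.7e-05, limma). Gdnf, a neurotrophic factor, had 326, 241, 228, 237 and 206 normalised counts in W718S/Y722S with Dex and 270.5, 260.2, 261, 252 and 277 with vehicle. WT cells had 442, 458 and 426 with Dex and 715, 772 and 761 with vehicle. In W718S/Y722S, Dex and vehicle overlapped for Gdnf only through Dex replicate 1 (326). The other Dex libraries of that line (206 to 241) lay below all of its vehicle libraries (252 to 277), unlike for Smad7. The level of Gdnf was higher in WT, and its difference was 0.65 ± 0.13 (adjusted p = 0.0057, limma).

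Plk2, a polo-like kinase, fell in both lines. It averaged 2099 ± 256 and 3069 ± 74.6 normalised counts in W718S/Y722S with Dex and vehicle, against 1387 ± 25.5 and 2876 ± 132 in WT. Its change was -0.56 in W718S/Y722S and -1.05 in WT, a difference of 0.50 ± 0.09 (adjusted p = 0.0012, limma). Fosl1, an AP-1 subunit, averaged 1832 ± 154 and 2051 ± 98.7 in W718S/Y722S with Dex and vehicle, against 248 ± 9.19 and 389 ± 37.1 in WT. Its difference was 0.48 ± 0.09 (adjusted p = 0.0022, limma). The receptor tyrosine kinase Epha2 changed by -0.19 in W718S/Y722S and -0.57 in WT, and Gfod1 by -0.17 and -0.58. Eps8, an actin regulator, Tnfrsf12a, a receptor of the TNF family, and Rnd3 had no called change in W718S/Y722S and changed by -0.34, -0.35 and -0.47 in WT. The calls of Fosl1 and Epha2 were lost on the deposited log2 values, as deposited and rescaled, those of Plk2 and Rnd3 on the rescaled ones, and that of Gfod1 where all 34 libraries share the spread (adjusted p = 0.12). Dusp7, a phosphatase of ERK, rose by 0.32 in W718S/Y722S and changed by -0.05 in WT (adjusted p = 0.85, limma). Akap2 and Pakap overlap on chromosome 4 and share reads, so their differences of 0.38 and 0.36 are not separate measurements, and both calls were lost with the 4 closest pairs averaged.

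Among genes with no called change in WT, Adamts1 and Bbc3 fell in W718S/Y722S. Adamts1, a secreted metalloprotease, had 1422, 1224, 1159, 1076 and 1106 normalised counts in W718S/Y722S with Dex and 1859.7, 1744, 1739.6, 1735 and 1840.2 with vehicle. Its counts in WT were 876, 870.2 and 818 with Dex and 837, 814 and 829.9 with vehicle. Dex and vehicle lay apart in W718S/Y722S and overlapped in WT, and the difference was -0.63 ± 0.08 (adjusted p = 5.8e-05, limma). Bbc3 (PUMA), which promotes apoptosis, had 292, 261, 261, 282 and 268 normalised counts in W718S/Y722S with Dex and 467, 415, 398, 376 and 416 with vehicle. In WT it had 264, 250.1 and 267 with Dex and 295, 266 and 282 with vehicle. With Dex the W718S/Y722S level overlapped the WT range, and the difference was -0.49 ± 0.09 (adjusted p = 0.0039, limma).

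Pik3ip1, an inhibitor of PI3 kinase, changed by -0.40 in W718S/Y722S and 0.19 in WT (adjusted p = 0.44, limma), and averaged 75.2 ± 5.52 and 100.0 ± 12.8 normalised counts in W718S/Y722S with Dex and vehicle, against 1191 ± 33.04 and 1043 ± 66.0 in WT. In WT its Dex libraries (1155.5 to 1220.9) lay above its vehicle libraries (996.17 to 1118.7), so the lack of a call there does not show that WT did not change. Adm, the precursor of the vasodilator adrenomedullin, rose by 0.55 in W718S/Y722S and changed by 0.08 in WT. Tmem268 and Sipa1l2 rose by 0.57 and 0.43 in W718S/Y722S and changed by 0.05 and -0.10 in WT. The calls of these 3 differences were lost without WT Dex replicate 2 (adjusted p = 0.061, 0.053 and 0.064, limma) and in 3 of 33, 6 of 33 and 5 of 33 alternatives in all. Gdf15, a stress-induced cytokine, had 34.4, 43.7, 52.5, 39.1 and 42.0 normalised counts in W718S/Y722S with Dex and 87.4, 76.5, 80.7, 75.1 and 57.1 with vehicle. The WT libraries had 4.83, 4.65 and 3.75 with Dex and 5.22, 1.59 and 1.96 with vehicle. Counts were low in WT, and the difference of -1.39 ± 0.34 (adjusted p = 0.033, limma) lost the call in 16 of 32 alternatives.

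For 5 genes the lines changed in opposite directions. Txnip (chr3:96557957-96561857, + strand), an alpha-arrestin that limits glucose uptake, had 532, 723, 709.7, 612 and 613 normalised counts in W718S/Y722S with Dex and 861, 757, 811, 717 and 929.6 with vehicle. WT cells had 3617, 3835 and 3881 with Dex and 2829, 3001 and 2906 with vehicle. In WT all Dex libraries were above all vehicle libraries, and in W718S/Y722S the Dex libraries were lower, with an overlap. The change was -0.36 in W718S/Y722S and 0.38 in WT, a difference of -0.73 ± 0.11 (adjusted p = 0.00025, limma). Txnip was counted on transcripts of slightly different length in the tables of the lines. Gm15441 overlaps Txnip on the other strand and the file headers state no strand option, so its difference of -0.67 cannot be told apart from that of Txnip.

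The other 4 genes with opposite changes were Trib1, Trp53inp1, Jade1 and Tnfrsf1b. Trib1, a pseudokinase that directs protein degradation, changed by -0.23 in W718S/Y722S and 0.34 in WT, a difference of -0.57 ± 0.11 (adjusted p = 0.0047, limma). Its call was lost with the 4 closest pairs averaged (adjusted p = 0.061, against 1.5e-07 to 0.061 over all alternatives). Trp53inp1, a p53 target, changed by -0.15 in W718S/Y722S and 0.33 in WT. Jade1, a subunit of a histone acetyltransferase complex, changed by -0.10 and 0.24. Tnfrsf1b, a receptor for TNF, was the gene that rose in W718S/Y722S and fell in WT. It had 1480.4, 1598, 1627, 1552 and 1521 normalised counts in W718S/Y722S with Dex and 1485, 1371, 1336, 1475 and 1425 with vehicle. Its counts in WT were 2409, 2358 and 2362 with Dex and 2734, 2606 and 2703 with vehicle. The W718S/Y722S groups overlapped and the WT groups did not, and the difference was 0.31 ± 0.05 (adjusted p = 0.0013, limma).

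Receptor dimers bind an imperfect palindrome, and promoters were searched for it to show what the genes with and without a difference carry near their start. RefSeq promoters (GRCm38.p6) from 250 bases before to 50 bases after the start site were matched to 10079 of the 13013 tested genes. The motif was GNACA, then any 3 bases, then TGTNC, which reads the same on both strands. It was in 3 of 182 promoters (1.65%) of genes with a called difference, in 3 of 96 promoters (3.13%) of genes that rose in both lines without one, and in 39 of all 10079 promoters (0.387%). A single arm of the site, AGAACA or TGTTCT on the other strand, was in 21 of the 182 (11.5%), in 8 of the 96 (8.33%) and in 1204 of the 10079 (11.95%). These windows hold the palindromes of both sets in capitals, with 10 bases on either side, on the strand of the gene.
Txnip (chr3:96557775-96557807, + strand): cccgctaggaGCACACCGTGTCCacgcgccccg
Jund (chr8:70697698-70697730, + strand): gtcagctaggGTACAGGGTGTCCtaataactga
Mt1 (chr8:94178985-94179017, + strand): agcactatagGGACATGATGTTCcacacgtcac
Suox (chr10:128673942-128673974, - strand): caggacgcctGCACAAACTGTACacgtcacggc
Gm6093 (chr13:33569495-33569527, - strand): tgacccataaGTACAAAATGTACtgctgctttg
Map7d2 (chrX:159459125-159459157, + strand): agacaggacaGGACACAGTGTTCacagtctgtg
Txnip, Jund and Mt1 had a called difference and the other 3 did not, which for Gm6093 depends on the pseudocount, as given above. The motif of Txnip, Jund and Mt1 lay 172, 31 and 94 bases before the start site. The RefSeq start of Gm6093 lies 448 bases from the start of the transcript in the files.

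The 3 genes with a palindrome and a difference responded in 3 ways. Txnip moved in opposite directions, as given above. Mt1, a metallothionein, had 902, 980.0, 983, 993 and 1010.1 normalised counts in W718S/Y722S with Dex and 705, 666, 694, 732 and 628 with vehicle. In WT it had 1206, 1261 and 1298 with Dex and 675, 651 and 677 with vehicle. It rose in both lines, from vehicle levels that overlapped, and its difference was -0.40 ± 0.07 (adjusted p = 0.00081, limma). Jund, an AP-1 subunit, changed by -0.05 in W718S/Y722S (adjusted p = 0.62, limma) and 0.45 in WT, a difference of -0.49 ± 0.07 (adjusted p = 8.5e-05, limma). Of the genes without a called difference, Suox changed by 0.52 in W718S/Y722S and 0.46 in WT, and Map7d2 by 2.88 and 2.37.

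Of 27 tested genes in a list of glucocorticoid-induced targets, 14 had a lower difference, 1 a higher one (Klf9) and 12 none that was called, where 1.28% of all tested genes had a lower and 0.446% a higher one. The list median was -0.42, against -0.0027 over all tested genes. In W718S/Y722S 21 of the 27 rose and 1 fell, and in WT 22 rose and 1 fell, with median changes of 0.62 and 1.31. The list was written with earlier results of these data known, and most members rose in WT. Of all 387 genes that rose in WT, 138 had a lower difference. The share over all tested genes is thus an unlike yardstick, and the count shows nothing particular to this list. Tsc22d3 (GILZ), an anti-inflammatory leucine zipper protein, changed by 1.73 in W718S/Y722S and 2.55 in WT, a difference of -0.82 ± 0.10 (adjusted p = 1e-05, limma). Differences of -0.93, -0.81 and -0.75 were found for the metal importer Slc39a14, the apoptosis inhibitor Bcl2l1 and glutamine synthetase, Glul. Lcn2, an iron-scavenging lipocalin, had 9.38, 24.8, 24.1, 10.7 and 12.2 normalised counts in W718S/Y722S with Dex and 0, 1.14, 3.36, 1.03 and 0.951 with vehicle. The WT libraries had 158, 132 and 143 with Dex and 8.95, 5.58 and 1.96 with vehicle. It rose in both lines, and its difference of -1.69 (95% interval -2.94 to -0.45) did not pass the test (adjusted p = 0.21, limma). It did with a pseudocount of 10 (-2.16, adjusted p = 1.9e-05), on the deposited log2 values and on those rescaled (adjusted p = 7.1e-11 and 4.3e-09).

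Of 19 tested genes of insulin and PI3 kinase signalling, 6 had a lower difference (against 1.28% of all tested genes) and none a higher one, with a list median of -0.06. Deptor, an inhibitor of mTOR, had 2948, 4764, 4746, 4722 and 4736 normalised counts in W718S/Y722S with Dex and 4252, 4418, 4514, 4351 and 4455 with vehicle. WT cells had 2386, 2170 and 2265 with Dex and 1259.6, 1201 and 1235 with vehicle. In W718S/Y722S, Dex replicate 1 lay far below the other 4 Dex libraries, which were all above the vehicle libraries. The difference was -0.91 ± 0.14 (adjusted p = 0.00030, limma), and -0.77 without that library (adjusted p = 1.7e-13). Foxo3 and Foxo1, transcription factors restrained by insulin, had differences of -0.50 and -0.39, and Irs2, an adaptor of the insulin receptor, one of -0.47. Sesn1 and Pik3ip1, given above, were the others. Of 10 alpha-arrestin and glucose uptake genes, 3 had a lower difference and none a higher one, namely Arrdc2, Txnip and Arrdc3. Arrdc3 changed by 0.13 in W718S/Y722S (adjusted p = 0.23, limma) and 0.88 in WT, a difference of -0.75 ± 0.10.

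Of 16 tested circadian clock genes, 3 had a lower difference (against 1.28% of all tested genes) and 13 none that was called. Besides Per2 these were Nfil3 and Bhlhe41, both repressors within the clock. Nfil3 averaged 932 ± 138 and 749 ± 30.8 normalised counts in W718S/Y722S with Dex and vehicle, against 741 ± 35.9 and 361 ± 22.9 in WT, a difference of -0.73 ± 0.11 (adjusted p = 0.00017, limma) that lost its call on the rescaled deposited values (adjusted p = 0.14). Bhlhe41 averaged 2712 ± 189 and 2644 ± 46.4 in W718S/Y722S, against 5137 ± 197 and 3423 ± 40.8 in WT, a difference of -0.55 ± 0.06 (adjusted p = 2.3e-06, limma). Of 15 p53 targets and polo-like kinases, 4 had a lower difference (Cdkn1a, Sesn1, Trp53inp1 and Bbc3) and Plk2 a higher one. Cdkn1a (p21), an inhibitor of the cell cycle, changed by 0.19 in W718S/Y722S and 0.75 in WT. Of 12 survival and death genes, 3 had a lower difference, namely Bcl2l1, Bbc3 and the repressor Bcl6 (-0.73).

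In the list of TGF-beta, Hippo and matrix genes, 4 of 24 had a higher difference (against 0.446% of all tested genes) and none a lower one. Besides Ccn2 and Smad7 these were Ankrd1, a target of YAP, and Ajuba, a scaffold of the Hippo pathway. Ankrd1 had 3467, 3286, 3288, 3199 and 3314 normalised counts in W718S/Y722S with Dex and 4218, 4498, 4432, 4361 and 4299.7 with vehicle. Its counts in WT were 1972, 2001 and 2014 with Dex and 3362, 3215 and 3283 with vehicle. Dex lowered it in both lines with no overlap, and the difference was 0.32 ± 0.04 (adjusted p = 3.7e-05, limma). Its call was lost where all 34 libraries share the spread (adjusted p = 0.066). Of 17 ERK feedback genes, Errfi1 had a lower difference and Phlda1 and Spred2 a higher one (against 1.28% and 0.446% of all tested genes). Dusp1, an ERK phosphatase, had a difference of -0.42 ± 0.12 that did not pass the test (adjusted p = 0.098, limma), but did without W718S/Y722S Dex replicate 1 (adjusted p = 0.0028). Of 20 inflammatory and AP-1 genes, Jund and Tnfaip3, an inhibitor of NF-kB, had a lower difference and Fosl1 a higher one. Of 22 Kruppel-like and early factors, Klf15, Id1 and Klf6 had a lower difference and Klf9 a higher one.

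In the other lists at most 2 members had a called difference. Over all tested genes 1.72% had one, 1.28% a lower and 0.446% a higher one. Lists this short cannot show a share below that, and a lone call says little about its list. It was lower for Sgk1 among 13 ion and water transport genes, Fkbp5 among 18 chaperones, Scd1 among 24 cholesterol and lipid synthesis genes, Herpud1 among 18 ATF4 and ER stress genes and Jag1 among 10 Notch pathway genes. It was lower for Zfp36 and Tob2 among 13 mRNA decay regulators and for Mt1 and Slc39a14 among 9 metal handling genes. Among 15 secreted factors Gdf15 was lower and Gdnf higher, and among 24 G2/M and replication genes Pcna was higher. No difference was called among 16 steroid receptors and coregulators, 11 interferon-stimulated genes, 16 housekeeping genes, 8 RNA quality genes, 5 epithelial markers or 6 mesenchymal markers. Of 16 markers of macrophages, adipocytes, endothelium and lymphoid cells, 5 were tested and Fabp4 was called. Their summed level was 305 to 374 normalised counts with Dex and 292 to 337 with vehicle in W718S/Y722S, against 680 to 742 and 577 to 666 in WT, and 11 of the 16 were under 10 in all groups. Among the list members named, the calls of Zfp36, Jag1, Phlda1, Klf15 and Tnfaip3 were lost in 20 of 33, 20 of 33, 16 of 33, 8 of 32 and 7 of 33 alternatives, that of Scd1 in 3 of 33 and that of Tob2 in 1 of 33.

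**Figure D3:**
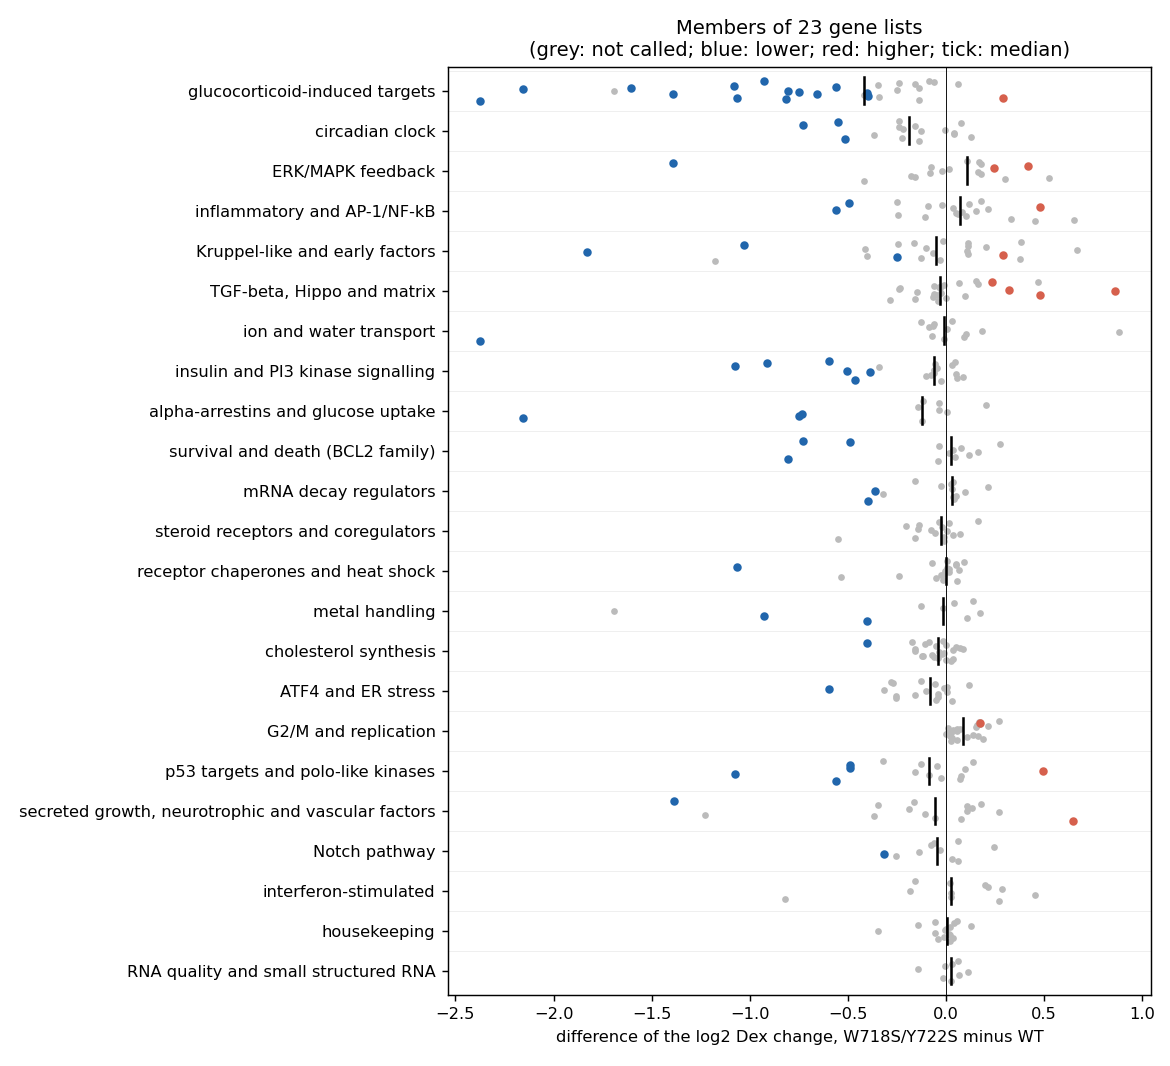
Difference of the log2 change with Dex, W718S/Y722S minus WT (horizontal axis), for the tested members of 23 gene lists. Blue and red points are lower and higher called differences, grey points are not called and the black tick is the list median; the glucocorticoid-induced targets lie mostly left of 0, with a median of -0.42, and the median of the housekeeping genes is near 0.

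A smaller change can come with a lower Dex level, a higher vehicle level or both. The tables of the lines were normalised separately, so the recovered counts were put on 1 scale, and the levels serve as a description. In a limma fit of these levels, 74.1% of all tested genes were called between the lines with vehicle and 75.3% with Dex. The lines were far apart even without hormone, as 1613 of the 13013 genes (12.4%) had vehicle levels at least 2-fold apart, and so had 42 of the 224. Of the 166 genes with a lower difference, 111 were further apart with Dex and 55 with vehicle. Of the 58 with a higher difference, 35 were further apart with Dex and 23 with vehicle. Over all tested genes, 59.3% were further apart with Dex. The median level of the 166 genes in W718S/Y722S minus WT was -0.50 (log2) with Dex and -0.03 with vehicle, and that of the 58 genes was 0.29 with Dex and 0.03 with vehicle.

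Single genes lay at both ends. The log2 level in W718S/Y722S minus WT was -2.21 with Dex and -0.05 with vehicle for Arrdc2, and -1.12 and 0.11 for Six4, so that both were far apart with Dex and close with vehicle. For Fabp4 it was -0.04 with Dex and 2.77 with vehicle. Sgk1 lay between them, with -0.74 with Dex and 1.63 with vehicle, as did Slc25a33 with -0.82 and 0.56. Ccn2 had -0.21 with Dex and -1.08 with vehicle.

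**Figure D4:**
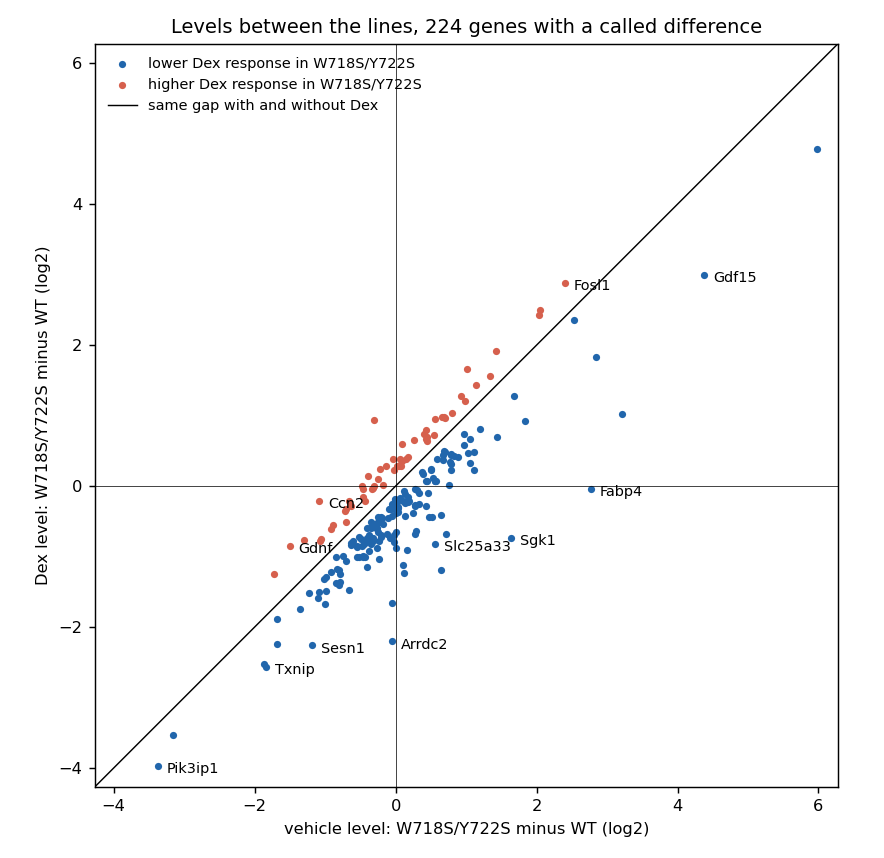
Level in W718S/Y722S minus level in WT (log2) with Dex (vertical axis) against vehicle (horizontal axis) for the 224 genes with a called difference. Blue and red points are lower and higher differences and the diagonal marks an equal gap with and without Dex; Arrdc2 lies near 0 on the vehicle axis and Fabp4 near 0 on the Dex axis.

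The size of the response was also read on genes picked without any library of either line, those called with Dex in P643A (586 genes, 4.61% of 12698 tested there). Of the 332 that rose in P643A (2.61%), 229 had a lower change in W718S/Y722S than in WT and 103 a higher one. Of these differences, 90 and 10 were called. Their median change was 0.22 in W718S/Y722S and 0.36 in WT. The slope of the W718S/Y722S change on the WT change over these genes, through 0, was 0.647, given as a description. Of the 254 that fell in P643A (2.0%), 144 had a higher change in W718S/Y722S than in WT and 110 a lower one. Of these differences, 15 and 5 were called. These counts go by the sign of the difference, whether or not the gene fell in either line. Their median change was -0.12 in both lines, and the slope was 0.587. Without W718S/Y722S Dex replicate 1 the slopes were 0.674 and 0.635. On the genes called in W718E, 59 that rose (0.465% of 12688 tested there) and 6 that fell (0.0473%), the slopes were 0.719 and 0.70.

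The W718S/Y722S response was also set against those of W718E and P643A, lines with 3 libraries per group, in a fit over all 34 libraries with 13328 genes. The fit also held the 6 libraries of P631A, a further mutant line. These comparisons share the W718S/Y722S libraries with the comparison to WT, so values are given side by side. Against W718E, 103 genes (0.773%) had a called difference, 52 higher and 51 lower in W718S/Y722S, and 179 without W718S/Y722S Dex replicate 1. With the libraries of those 2 lines alone there were 36. Against P643A, 23 genes (0.173%) had one, 4 higher and 19 lower, and 56 without W718S/Y722S Dex replicate 1. With the libraries of W718S/Y722S and P643A alone there were 18, not all of them among the 23.

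Sgk1 changed by 1.57 in W718S/Y722S, 1.42 in W718E, 1.88 in P643A and 3.94 in WT, and neither the difference from W718E (0.15 ± 0.10, adjusted p = 0.60, limma) nor that from P643A (-0.31 ± 0.10, adjusted p = 0.23, limma) was called. Fkbp5 changed by 0.62 in W718S/Y722S, 0.36 in W718E, 0.69 in P643A and 1.68 in WT. Six4 changed by 0.20 in W718S/Y722S, 0.25 in W718E, 0.42 in P643A and 1.43 in WT. For these 3 genes W718S/Y722S, W718E and P643A had a smaller rise than WT. Errfi1 lay between the other mutants, with a change of 0.84 in W718S/Y722S, 0.49 in W718E, 1.32 in P643A and 2.23 in WT, and its difference was called against both W718E (0.35 ± 0.09, adjusted p = 0.046, limma) and P643A (-0.48 ± 0.09, adjusted p = 0.0050, limma). With the libraries of W718S/Y722S and W718E alone it was not (adjusted p = 0.14). Bcl2l1 changed by 0.73 in W718S/Y722S, 0.60 in W718E, 1.11 in P643A and 1.53 in WT, with a called difference from P643A (-0.39 ± 0.06, adjusted p = 0.00076, limma) and none from W718E (0.13 ± 0.06, adjusted p = 0.39, limma).

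For Ccn2, Txnip and Bbc3, the difference from both W718E and P643A was called. Ccn2 rose by 5.04 in W718S/Y722S, 3.81 in W718E, 3.86 in P643A and 4.18 in WT, and the difference was called against W718E (1.23 ± 0.17, adjusted p = 5.9e-05, limma) and P643A (1.19 ± 0.17, adjusted p = 0.00043, limma). Txnip changed by -0.36 in W718S/Y722S, 0.45 in W718E, 0.28 in P643A and 0.38 in WT, with a lower change in W718S/Y722S than in W718E (-0.81 ± 0.12, adjusted p = 0.00010, limma) and P643A (-0.63 ± 0.12, adjusted p = 0.0087, limma). Bbc3 changed by -0.60 in W718S/Y722S, -0.01 in W718E, -0.17 in P643A and -0.11 in WT, again lower than in W718E (-0.58 ± 0.09, adjusted p = 9.3e-05, limma) and P643A (-0.43 ± 0.09, adjusted p = 0.016, limma). Its call against P643A was lost with the libraries of those 2 lines alone (adjusted p = 0.062). Ampd3 and Sphk1, with no called difference from WT, had a higher change in W718S/Y722S than in W718E (0.72 ± 0.10, adjusted p = 6.5e-05, and 0.73 ± 0.12, adjusted p = 0.00038, limma).

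**Figure D5:**
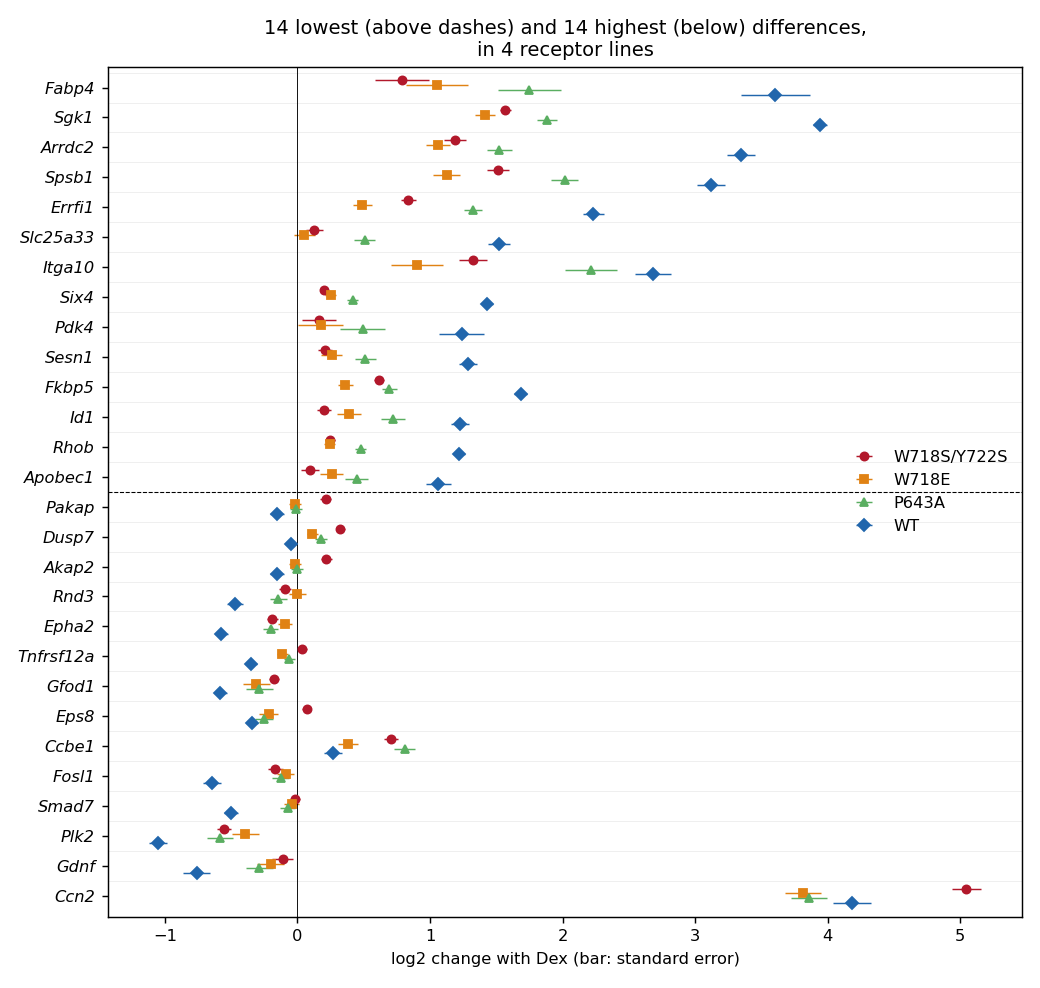
Change with Dex (log2, bar: standard error) of the genes with the 14 lowest and the 14 highest differences by the naming rule, in W718S/Y722S, W718E, P643A and WT. W718S/Y722S and WT come from the fit over 16 libraries and W718E and P643A from the fit over 34; above the dashed line the WT value lies right of all 3 mutants, and Ccn2 has its highest change in W718S/Y722S.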

How the data were processed

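Total RNA of 16 libraries (W718S/Y722S, 5 with Dex and 5 with vehicle; WT, 3 and 3) was analysed. Groups come from the labels. Per the labels' protocols, the library kit was a stranded one for total RNA. Per the submitters' processing notes, the tools were cutadapt, STAR 2.7.0f and HOMER 4.10.4, with mm10. Per the file headers, the authors counted reads in RefSeq exons, keeping 1 transcript per gene, which differed between the 2 tables for 1652 of 25124 genes.

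The authors deposited log2 values per library, normalised within each table. No header names the transform. That the values are shrunken, to a different degree in each table, was inferred from the values themselves. Their tables also hold log2 fold changes of Dex over vehicle with raw and adjusted p-values, by a test the authors do not name. At the same threshold, the authors' deposited table has calls for 608 genes in W718S/Y722S and 616 in WT, of which 597 and 519 were called here in the same direction. The inferred shrinkage was inverted per table to recover the counts behind the deposited values. Its parameters were tuned so that genes with a mean count of up to 100 gave whole numbers. At a mean count of 2 to 100, 99.995% (W718S/Y722S) and 100% (WT) of values lay within 0.1 of a whole number, partly through that tuning. The share was 98.4% (W718S/Y722S) and 99.9% (WT) in the next band of mean counts. It was 60.7% and 87.6% in the band after that, and 20.3% and 28.2% in the highest band. The recovered log2 fold change lay within 0.0147 of the deposited one for genes with a mean count of at least 100 in W718S/Y722S and within 0.0137 in WT.

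Recovered counts were scaled over the 16 libraries, filtered at 10 in at least 3 libraries, put on the log2(count + 1) scale, which understates changes of low genes, and fitted with limma 3.58.1 (R 4.3.3, trend) with 4 group means. P-values are two-sided and adjusted by Benjamini and Hochberg over all 13013 genes. Errors of log2 values are standard errors, errors of counts are SD. W718E and P643A were fitted with all 34 libraries. The fit was also run on simulated counts of independent libraries. These held no library that stood apart and no close pairs, so that run cannot show how the fit handles them.

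Named genes were, among calls kept without each single library and with a group mean of at least 50, the 14 lowest and 14 highest differences; also the 8 largest not called in WT, all genes with opposite calls, the 8 smallest among 2-fold WT changes, Nr3c1, and up to 4 members with the largest difference in each of 26 lists. Other called list members, the genes with a palindrome and Klf9, Tsc22d3 and Glul were named after their values were seen. The members and lists were chosen with earlier results of these data known. Alternatives numbered 33, of which 4 were chosen after seeing the data (genes on the same transcript, no libraries with an exon share under 70%, that exon share as a term, closest pairs averaged).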

Additional observations from a re-analysis of the deposited data

Results flagged for a closer look

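The change with Dex differed between the lines by the test of the difference itself for 166 genes with a lower and 58 genes with a higher log2 change in W718S/Y722S than in WT. Their values are given above.

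In each group of 5 W718S/Y722S libraries, the highest and the lowest library were compared with the others for each of the 132 named genes. In 33 of 264 groups (12.5%, where chance gives about 5%) 1 library lay beyond Dixon's limit of 0.71 of the range, 27 of them in Dex groups and 6 in vehicle groups. In 24 it was W718S/Y722S Dex replicate 1.

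In normalised counts, that library was the high one for Ccn2 (1588), Smad7 (2252), Tnfrsf12a (3223), Epha2 (4912), Rnd3 (797), Nfil3 (1177), Phlda1 (1196), Dusp1 (392), Arrdc3 (447), Ppp1r15a (934), Mcm3 (3560), Mcm6 (6297) and Col1a2 (45200). It was the low one for Ccbe1 (1350), Tmem268 (683), Jade1 (10930), Lims2 (56.3), Ampd3 (2190), Orm3 (106), Deptor (2948), Bmf (16.7), Mt1 (902), Rrm2 (7435) and Pdgfrb (2466). For Deptor the other 4 libraries had 4722 to 4764, and for Ccn2 979 to 1108.

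The other Dex libraries that stood apart were those of Plau in replicate 3 (101, high), Hexim1 in replicate 5 (902, high) and Dhcr7 in replicate 5 (1390, high). The vehicle libraries were those of Tnfrsf12a in replicate 4 (3067, high), Per2 in replicate 1 (456, high), Cdkn1a in replicate 4 (3600, high), Jag2 in replicate 1 (23.1, high), B2m in replicate 2 (3168, low) and Cd68 in replicate 2 (175, high).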

How the results depend on the processing

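The 224 called differences kept their sign in every alternative in which they were fitted, except 3 genes on the deposited log2 values and 3 on those values rescaled by the slope of each table. Leaving out each library in turn gave 153 to 351 called genes (36 to 112 higher, 117 to 239 lower), and 129 of the 224 were called every time. The count was 491 with array weights per library (178 higher, 313 lower), 147 without the libraries with an exon share under 70% (34 higher) and 125 with the 4 closest pairs averaged (24 higher, 101 lower). With WT Dex replicates 2 and 3 averaged 38 genes were higher. The cause of these shifts was not tested. Fits that drop or average libraries also hold fewer of them. On the deposited values 257 genes were called, and 192 when rescaled.

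In WT, 1061 genes were called with array weights (500 fell); 122 fell on the rescaled values and 147 with WT Dex replicates 2 and 3 averaged. Leaving out 1 library gave 145 to 320 falls in WT. Against W718E the count was 36 with the libraries of the 2 lines alone and 179 without W718S/Y722S Dex replicate 1. Against P643A these counts were 18 and 56. The slope for falls was 0.70 on the 6 genes that fell in W718E.

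Signs turned for S100a7a (0.13), Per1 (0.64), Sphk1 (-0.31) and Orm3 (0.79) on the rescaled values and for Sphk1 (-0.20) and Ifit3 (-0.041) on the deposited ones, none of them called on the recovered counts, but each called where its sign turned. Of the 62 named calls, 36 held in all 33 alternatives.

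Same replicate numbers gave no clear sign of paired libraries: the correlations of their deviations were -0.13 to 0.11 in W718S/Y722S and -0.04 to 0.09 in WT. So few correlations cannot exclude pairing. W718S/Y722S Dex replicates 4 and 5 correlated with vehicle replicates 2 and 3 (0.16 to 0.21). These 4 libraries had an exon share under 70%, and with that share as a term 258 genes were called, the 224 among them. A fit with the replicate block called 189 genes, 183 of them among the 224.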
